A study of Homo sapiens with 12 samples.

Results

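The 9 genes described here encode carriers, exporters and receptors of lipoproteins in the brain, and a lipase. These are APOE, CLU, APOC1, LPL (the lipase), ABCA1, ABCG1, LRP1, LRP8 and VLDLR. They were chosen by name, with earlier results of these data known, and all 9 were found among the 59653 gene symbols of the deposited count table. All 9 also passed the filter on low counts, which left 24671 genes. The libraries hold total RNA of human neurons differentiated from iPSCs (induced pluripotent stem cells) of IMR-90, a fibroblast line (their titles also read NPC, which is not explained). The 6 libraries of the control group (siNC) are of cells given a negative control siRNA, and the 6 of the knockdown group (siZCC) of cells given an siRNA against ZCCHC17, which encodes a zinc finger protein. All come from 1 cell line. Nothing in the labels says whether replicates were separate cultures, so p-values measure the spread between these libraries, which may be technical.

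In the brain, cholesterol and phospholipid move between cells on particles built around APOE, which are made mainly by astrocytes. ABCA1 and ABCG1 export lipid from the cell onto these particles, and a family of endocytic receptors takes the particles up. Transcription of the exporters and of APOE is known to respond to the liver X receptors (LXR), nuclear receptors that sense oxidised cholesterol, whereas the enzymes of cholesterol synthesis are known to respond to SREBP2, a transcription factor active when cells lack sterol.

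The deposited counts summed to between 90755953 and 120023356 per library in siNC and between 76115083 and 105389055 in siZCC. Every siNC total but that of replicate 4 was above all siZCC totals, so depth differed between the groups. ZCCHC17 itself stood at 53.99 to 61.0 CPM (counts-per-million after TMM scaling, a correction for library composition) in siNC and at 9.37 to 10.6 CPM in siZCC, without overlap. The TMM factors also did not overlap, at 1.0003 to 1.016 in siNC and 0.984 to 0.998 in siZCC. The mRNA of IL1B, a cytokine, separated the libraries in another way: it lay between 5.23 and 15.97 CPM in 6 libraries, 3 of each group, and at 0.09999 CPM or below in the other 6. This separation crossed the treatment groups, and results for each side are given where a call was lost on one of them; these fits were chosen after seeing the data.

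The promoters of ABCA1, an exporter, and APOE, a carrier, are shown as examples of genes that were higher in siZCC. The sequences are RefSeq's, on GRCh38.p14, and give the 250 bases before the start annotated by RefSeq, 5′ to 3′ along the gene. For ABCA1 this is chr9:104928156-104928405 on the minus strand, and for APOE chr19:44905546-44905795 on the plus strand, the most upstream of 3 APOE starts in that table. Capitals mark TATAA in both and, in ABCA1, a match to a direct repeat with a spacer of 4 bases, the kind of site bound by LXR.
ABCA1: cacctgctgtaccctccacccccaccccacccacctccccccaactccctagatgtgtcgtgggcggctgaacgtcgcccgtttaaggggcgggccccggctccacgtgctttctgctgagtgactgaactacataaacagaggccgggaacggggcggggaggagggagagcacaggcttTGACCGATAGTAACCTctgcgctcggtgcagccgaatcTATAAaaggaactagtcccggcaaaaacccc
APOE: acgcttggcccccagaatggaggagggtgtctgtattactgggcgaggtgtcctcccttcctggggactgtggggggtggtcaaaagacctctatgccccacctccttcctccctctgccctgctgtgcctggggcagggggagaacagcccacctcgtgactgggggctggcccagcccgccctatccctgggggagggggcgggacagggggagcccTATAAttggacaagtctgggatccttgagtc
The repeat was searched as AGGTCA, any 4 bases and AGGTCA again, with up to 2 mismatches in the fixed letters, on both strands. In ABCA1 it read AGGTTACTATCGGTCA on the opposite strand, from 69 to 54 bases before the start, with 2 mismatches. Such a match occurred in 2.03% of all 35116 RefSeq windows of this length, and TATAA, on either strand, in 18.9%. Windows were found for 6 of the 9 genes (not for CLU, LPL and ABCG1). All of these 6 were higher in siZCC, and ABCA1 was the only one of them with a match to the repeat. A match describes letters only, and binding was not measured.

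Of the 9 genes, 8 rose in siZCC and none fell (quasi-likelihood test of edgeR, p-values adjusted by Benjamini-Hochberg over all genes kept, threshold 0.05). Over all genes tested, 11.4% were called higher, 10.8% lower, and 22.2% in either direction. The median log2 fold change of the 9 genes was 0.36, against -0.0016 for all genes tested. Since the 9 were chosen with such results known, their count and median describe them and are no independent evidence of a direction. The gene that did not pass was LPL. In 5 of the 9 genes every siZCC library lay above every siNC library, an arrangement found in 5.25% of all genes tested. In none did every siZCC library lie below, as in 4.5% of all genes tested. In bulk RNA, a change in the share of cells of a type and a change in RNA per cell cannot be told apart. Among the 9 genes, the rises ran from 28.6% to 44.1% in the carriers and exporters and from 10.3% to 13.0% in the receptors LRP1, LRP8 and VLDLR. Of the receptors outside the 9, given below, some rose more than these and others fell.

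**Figure D1:**
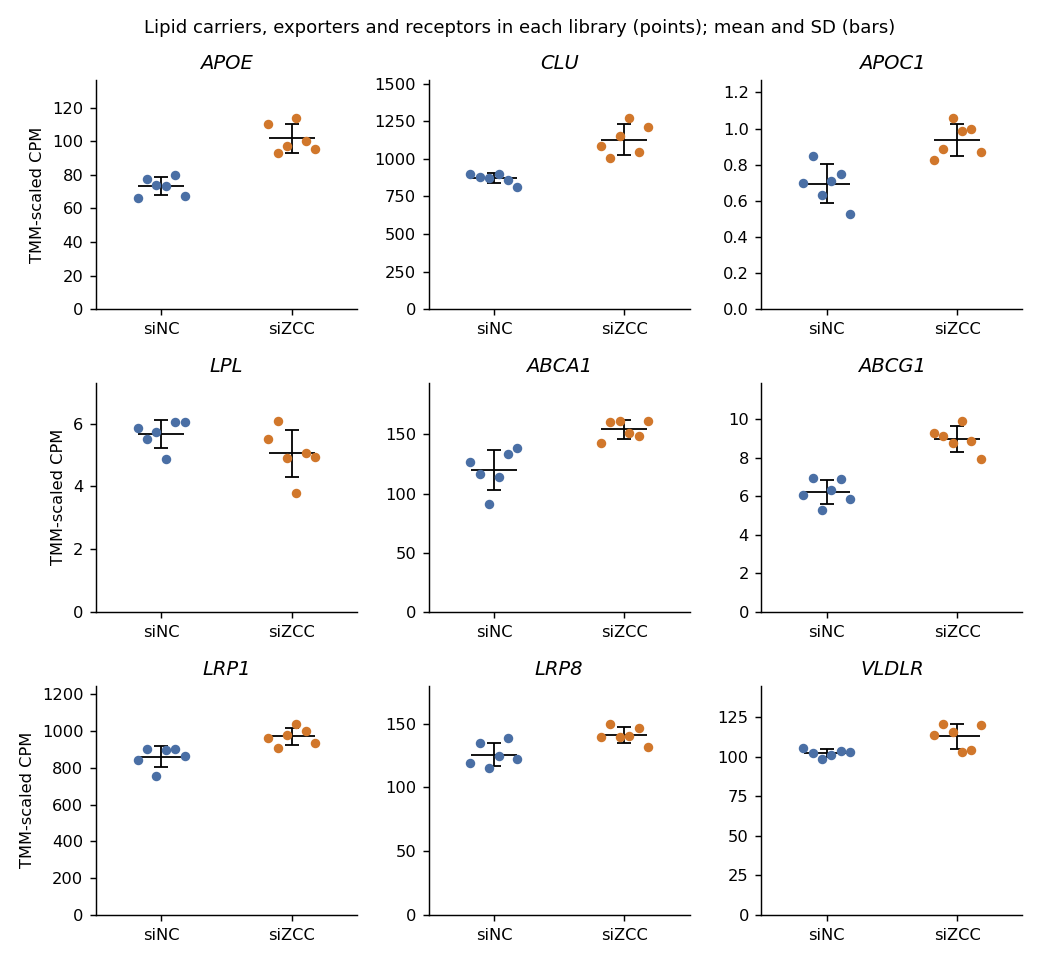
TMM-scaled CPM (vertical axes, each from 0) of the 9 genes in the 6 siNC and 6 siZCC libraries (points), with mean and SD (bars). The siZCC points of APOE, CLU, ABCA1, ABCG1 and LRP1 all lie above the siNC points, while those of APOC1, LPL, LRP8 and VLDLR overlap with them.

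APOE encodes the main lipid-carrying apolipoprotein of the brain and sits at chromosome 19, bases 44905754 to 44909393, plus strand (positions here and below are those of the symbols in GENCODE release 29 on GRCh38, the build named in the submitters' processing notes). Its level ran from 66.5 to 80.2 CPM in siNC, with a median of 73.7, and from 93.3 to 113.98 CPM in siZCC, with a median of 98.7. The lowest siZCC library was therefore above the highest siNC library. The log2 fold change was 0.48 (SE 0.0545, 95% interval 0.36 to 0.59, adjusted p 1.59e-05 in edgeR's quasi-likelihood test), a rise of 39.0%. By exact permutation of the libraries (two-sided), p was 0.00216, the lowest value possible with 6 libraries a group. Only 2.78% of all genes tested had a log2 fold change as high as that of APOE.

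CLU encodes clusterin, also called apolipoprotein J, a secreted chaperone that binds lipid and unfolded protein. Its position is chromosome 8, bases 27596917 to 27615031, minus strand. CLU ran from 809.9 to 899.7 CPM in siNC (median 875.8) and from 1002 to 1271 CPM in siZCC (median 1118). The groups did not overlap, and the siNC libraries lay close together, with a coefficient of variation of 3.85% against 9.08% in siZCC. CLU rose by 0.37 on the log2 scale (SE 0.0490, adjusted p 5.12e-05 in edgeR's quasi-likelihood test; exact permutation p = 0.00216). With 82218 to 114161 counts per library, counting error was small beside the spread between libraries.

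APOC1 encodes a small apolipoprotein that exchanges between lipoproteins and inhibits their remodelling. It lies just downstream of APOE, from 44914247 to 44919349 on chromosome 19. Its level was low, from 0.524 to 0.848 CPM in siNC (median 0.705) and from 0.827 to 1.06 CPM in siZCC (median 0.936), resting on 61 to 100 counts per library. Of the 6 siZCC libraries, 5 lay above every siNC library. The log2 fold change was 0.43 (SE 0.116, 95% interval 0.19 to 0.67, adjusted p 0.0132 in edgeR's quasi-likelihood test; exact permutation p = 0.00433). The call was lost when all libraries were thinned to the smallest total (0.34, adjusted p 0.0554) and with 1 surrogate variable in the fit (0.40, adjusted p 0.0593). It was also lost on both sides of the IL1B separation, at 0.48 in the libraries with high IL1B and 0.38 in those with low IL1B (adjusted p 0.158 and 0.161 in the same edgeR test). In GENCODE, 43.2% of the exon bases of APOC1 are also exon bases of AC011481.3, a transcript on the same strand counted at 0.122 CPM in siNC, so how the reads were divided between them is not known and the level of APOC1 is uncertain.

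LPL encodes lipoprotein lipase, which hydrolyses the triglyceride of lipoproteins (chromosome 8, bases 19901717 to 19967259, plus strand). Its level was 4.87 to 6.06 CPM in siNC (median 5.78) and 3.80 to 6.09 CPM in siZCC (median 4.99). The groups overlapped, since 1 siZCC library lay above all siNC libraries and 1 below all of them. The log2 fold change was -0.17 (SE 0.0882, adjusted p 0.196 in edgeR's quasi-likelihood test; exact permutation p = 0.121). The 95% interval of -0.35 to 0.02 does not include a rise of the size seen in APOE.

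ABCA1 encodes the transporter that loads cholesterol and phospholipid onto lipid-poor apolipoproteins (chromosome 9, bases 104781002 to 104928237, minus strand). It ran from 90.8 to 138.2 CPM in siNC (median 121.8) and from 142.4 to 161.5 CPM in siZCC (median 156.0). All siZCC libraries were above all siNC libraries, although the siNC libraries were spread widely, with a coefficient of variation of 14.2% against 5.20% in siZCC. ABCA1 rose by 0.36 on the log2 scale (SE 0.0742, adjusted p 0.00217 in edgeR's quasi-likelihood test; exact permutation p = 0.00216). The change was 0.35 in the 6 libraries with high IL1B and 0.37 in the 6 with low IL1B (adjusted p 0.0832 and 0.0037 in the same edgeR test).

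ABCG1 encodes the transporter that adds further cholesterol to particles already holding lipid (chromosome 21, bases 42199689 to 42297244, plus strand). It had the largest fold of the 9 genes. Its level was 5.30 to 6.93 CPM in siNC (median 6.20) and 7.91 to 9.91 CPM in siZCC (median 8.99), with no overlap. The rise was 0.53 on the log2 scale (SE 0.0688, adjusted p 5.07e-05 in edgeR's quasi-likelihood test; exact permutation p = 0.00216), a rise of 44.1%.

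Among the receptors, LRP1 encodes a large endocytic receptor for APOE and many other ligands (chromosome 12, bases 57128493 to 57213351, plus strand). LRP1 ran from 756 to 902 CPM in siNC (median 879) and from 909.9 to 1040.1 CPM in siZCC (median 971). The groups did not overlap, but the gap between them was small. LRP1 rose by 0.18 on the log2 scale (SE 0.0425, adjusted p 0.00675 in edgeR's quasi-likelihood test; exact permutation p = 0.00216). It was 0.25 in the libraries with high IL1B and 0.10 in those with low IL1B (adjusted p 0.0292 and 0.1998), 0.12 with 1 surrogate variable (adjusted p 0.0688), and 0.11 with an offset for GC content and length (adjusted p 0.00889), all in the same edgeR test.

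LRP8 and VLDLR encode the paired receptors of reelin, a guidance protein of migrating neurons, and both also bind APOE. LRP8 occupies bases 53242364 to 53328070 of chromosome 1 (minus strand) and VLDLR bases 2621834 to 2660053 of chromosome 9 (plus strand). LRP8 ran from 115 to 138.6 CPM in siNC (median 123) and from 132 to 149.96 CPM in siZCC (median 140.0). Of its 6 siZCC libraries, 5 lay above every siNC library, and the log2 fold change was 0.17 (SE 0.0439, adjusted p 0.0112 in edgeR's quasi-likelihood test; exact permutation p = 0.0130). VLDLR ran from 98.7 to 105 CPM in siNC (median 103) and from 102.8 to 120.8 CPM in siZCC (median 115), and 4 of the 6 siZCC values exceeded all siNC values. Its log2 fold change was 0.14 (SE 0.0392, adjusted p 0.0154 in edgeR's quasi-likelihood test; exact permutation p = 0.0173). VLDLR was 0.074 in the libraries with high IL1B and 0.20 in those with low IL1B (adjusted p 0.381 and 0.0152), and LRP8 was 0.19 and 0.14 (adjusted p 0.0538 and 0.203). Whether the sides differed was not tested. Of the exon bases of VLDLR, 7.90% are shared with VLDLR-AS1 on the opposite strand (17.01 CPM in siNC), and the strand setting of the counting is not given in the sources used here.

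**Figure D2:**
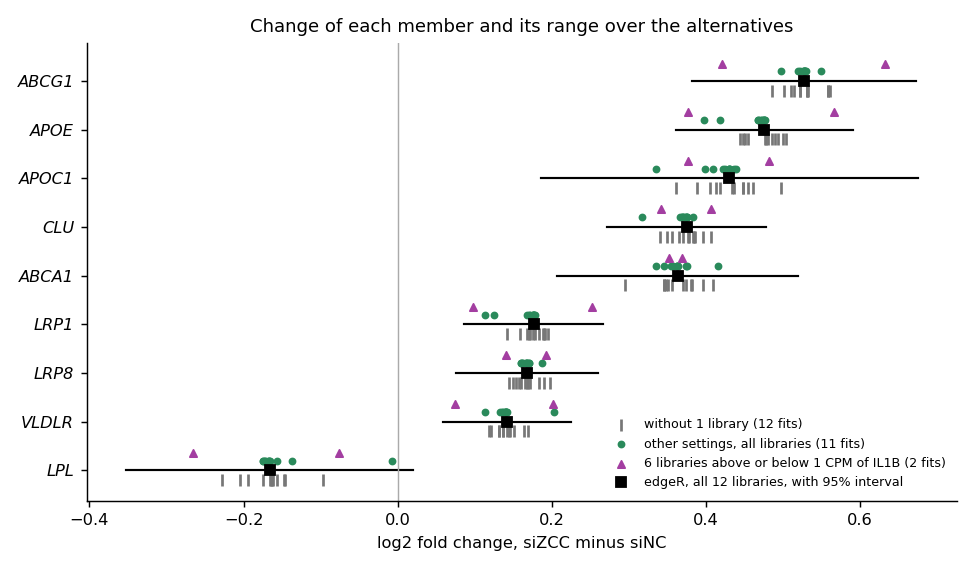
Log2 fold change (siZCC minus siNC, horizontal axis) of each gene in the fit of all 12 libraries with its 95% interval (black), without each library in turn (grey ticks), under other settings (green points), and in the 6 libraries above or below 1 CPM of IL1B (purple triangles). All values of the 8 genes that rose lie above 0, and all values of LPL lie below it.

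Whether APOE moved more than the other genes was tested on the log2 ratio of APOE to each gene within a library, by the exact permutation test (two-sided) with adjustment over the 8 pairs. APOE rose more than each receptor: by 0.30 relative to LRP1 (adjusted p 0.00866 over 8 pairs, exact), by 0.31 relative to LRP8 and by 0.34 relative to VLDLR, with the same adjusted p for all. The APOE to LRP1 ratio separated the groups without overlap. APOE also rose relative to LPL, by 0.65, again without overlap of the groups (adjusted p 0.00866, exact). No difference passed for the other carriers and the exporters: the ratio shifted by 0.10 for CLU, 0.04 for APOC1, 0.10 for ABCA1 and -0.05 for ABCG1 (exact adjusted p 0.277 to 0.682). These 4 ratios varied between libraries of a group with an SD of 0.0861 to 0.262, so shifts of that size could not be told from the spread.

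Levels of different genes were compared per kilobase of annotated exon. In siNC, CLU stood highest at 131 ± 5.06 CPM per kilobase (SD, n = 6), and the values of its 6 libraries lay above those of all other genes. LRP1 followed at 41.3 ± 2.71 and APOE at 33.4 ± 2.46 (SD, n = 6 each), and these neighbours overlapped in siNC. In siZCC the same neighbours stood at 46.6 ± 2.24 and 46.5 ± 3.86 (SD, n = 6 each) and overlapped too. LRP8, VLDLR and ABCA1 formed a middle range, with means of 12.3, 10.96 and 10.6 CPM per kilobase in siNC, and each overlapped with the next. In siZCC ABCA1 (13.6) stood above VLDLR (12.1), with overlap. LPL (1.29), ABCG1 (1.02) and APOC1 (0.564) were lowest in siNC. There LPL and ABCG1 overlapped, while ABCG1 lay apart from APOC1. In siZCC ABCG1 (1.47) exceeded LPL (1.15) in mean, again with overlap. The order depends on the length used: with the longest annotated transcript in place of all exon bases, 3 of the 9 genes kept their rank, and APOE (60.6) stood above LRP1 (57.7) in siNC with overlap, and in siZCC (84.3 against 65.2) without overlap.

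**Figure D3:**
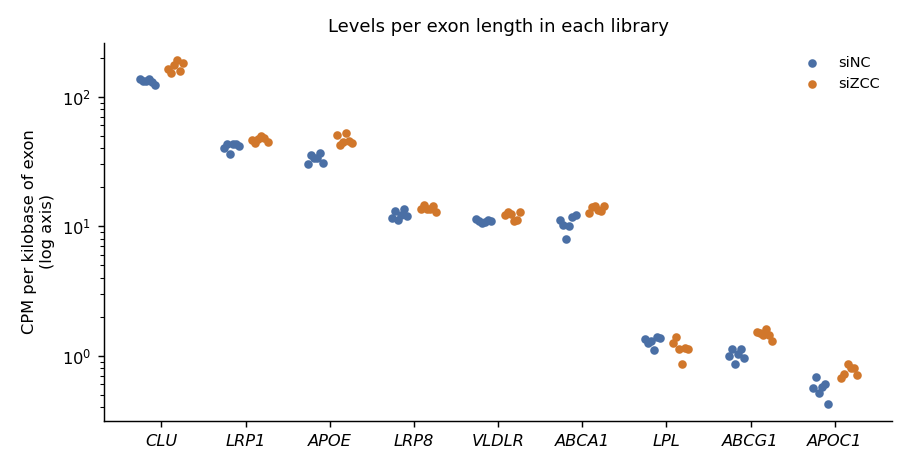
CPM per kilobase of annotated exon (vertical log axis) of the 9 genes in each siNC and siZCC library (points), ordered by the siNC mean. CLU lies above all others, LRP1 and APOE overlap in both groups, and LPL, ABCG1 and APOC1 lie lowest.

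Within groups, shared variation of the genes was examined pair by pair. Deviations of log2 CPM from the group means were correlated over the 12 libraries for all 36 pairs of the 9 genes, and no pair passed an adjusted p of 0.05 in a permutation test. With 12 libraries, this does not show that the genes varied separately. The 3 pairs with the smallest p were CLU with LPL (Pearson r -0.82, Spearman rho -0.74), ABCG1 with LRP8 (r 0.80, rho 0.83) and ABCG1 with LRP1 (r 0.77, rho 0.74). Their unadjusted permutation p-values were 0.00391, 0.00542 and 0.00617, or 0.0740 each for Pearson's r after adjustment over 36 pairs. For Spearman's rho they were 0.0178, 0.00518 and 0.0123, or 0.172 each after adjustment. Without the 2 libraries farthest from the median of the first gene of a pair, r was -0.52, 0.63 and 0.54. Centring also by the IL1B sides left r at -0.86, 0.83 and 0.70.

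Among genes whose mean was 5 CPM or more (12624 compared for most), the deviations most like those of APOE included those of FAM219A (r 0.95, over 12 libraries). For CLU they were in TYRO3 and SELENON (r 0.93 for both), and for APOC1 in AARS2 and GBAP1 (r 0.89 for both). For the exporters they were in AGO2 (r 0.98) and ZKSCAN1 (r 0.97) with ABCA1, and in WASF3 (r 0.93) and PRKCE (r 0.92) with ABCG1. For the receptors they were in ANKFY1 (r 0.99) and CELSR2 (r 0.97) with LRP1, in MRPS25 (r 0.96) and INSR (r 0.95) with LRP8, and in NPL (r 0.98) and SERBP1 (r 0.97) with VLDLR. LPL was most like RYBP and TMEM260 (r 0.91 for both). None of the 9 genes was among these closest matches of another. These are the highest of many values over libraries that share depth and preparation, and are given as a description.

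The other genes of lipoprotein transport came from lists by role, in which PLTP and MYLIP each stand under more than 1 role. Counts and medians are over whole lists, including genes not named. The lists, like the 9 genes, were chosen with earlier results of these data known. Their counts and medians therefore describe them and are no independent evidence of a direction. Of 17 other lipoprotein and sorting receptors kept, 7 were higher and 2 lower, with a median log2 fold change of 0.13 (edgeR's quasi-likelihood test; 11.4% of all genes higher and 10.8% lower). LRP2, or megalin, a large endocytic receptor of epithelia and neural progenitors, ran from 142.7 to 234 CPM in siNC (median 180.9) and from 308 to 338 CPM in siZCC (median 325). The groups lay far apart, and the log2 fold change of 0.80 (SE 0.0817, adjusted p 4.80e-06) was larger than that of any of the 9 genes. LRP1B, a close relative of LRP1, rose by 0.68 (SE 0.0803), and SORL1, a sorting receptor that binds APOE and the amyloid precursor, rose by 0.51 (SE 0.0616). Among the falls was SORT1, or sortilin, at -0.28 (SE 0.0437, adjusted p 2.80e-04).

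Of 16 other apolipoproteins and lipid transfer proteins, 5 passed the filter. Of these, 3 were higher and 0 lower (11.4% and 10.8% of all genes tested), with a median of 0.23. None of the 11 that did not pass, among them APOB, APOD, APOC2 and APOH, had more than 8 counts in any library. PLTP, which transfers phospholipid between lipoproteins, ran from 281.0 to 301.5 CPM in siNC (median 298.8) and from 339.7 to 400.8 CPM in siZCC (median 380.1), again with no overlap (log2 fold change 0.36, SE 0.0356, adjusted p 4.35e-06 in edgeR's quasi-likelihood test). MTTP, which loads lipid onto APOB, rose by 0.43 (SE 0.0460), and LCAT, which esterifies cholesterol on particles, by 0.23 (SE 0.0446). Of 12 other ABCA and ABCG transporters kept, 2 were higher, ABCA2 (0.26, SE 0.0379) and ABCA3 (0.15, SE 0.0329), and 1 lower, ABCA8 (-0.24, SE 0.0582), with a median of 0.02. These counts stand against the same shares of all genes tested. ABCG4, the closest relative of ABCG1, did not pass (-0.02, SE 0.0525, adjusted p 0.820).

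The LXR list held the 2 receptors, their partners and targets outside the 9 genes. Of 13 kept, 4 were higher and 1 lower, where 11.4% of all genes were higher and 10.8% lower, with a median of 0.03. Both receptors rose: NR1H3 (LXR alpha) by 0.23 (SE 0.0467, adjusted p 0.00236) and NR1H2 (LXR beta) by 0.13 (SE 0.0350, adjusted p 0.0126; edgeR's quasi-likelihood test for both). PLTP and FASN, the fatty acid synthase (0.17, SE 0.0387), were the other rises, and LPCAT3, which remodels phospholipids, fell by 0.14 (SE 0.0405). Other targets did not pass: MYLIP, a ligase that degrades LRP8 and VLDLR proteins, was at -0.0027 (SE 0.0511), SREBF1 at -0.07 (SE 0.0376) and SCD at 0.04 (SE 0.0345).

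In the list of SREBP2 and its sterol targets, 8 of 14 genes were lower and 0 higher, with 0 of 14 fold changes above 0 and a median of -0.11. Over all genes tested, 10.8% were lower and 11.4% higher, and the median was -0.0016. This list too was chosen with earlier results known. INSIG1, which retains the SREBP complex in the endoplasmic reticulum, was at -0.43 (SE 0.0526, adjusted p 2.73e-05 in edgeR's quasi-likelihood test). The synthesis enzyme SQLE fell by 0.20 (SE 0.0257), while SREBF2 itself, which encodes SREBP2, was at -0.02 (SE 0.0316, adjusted p 0.751).

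**Figure D4:**
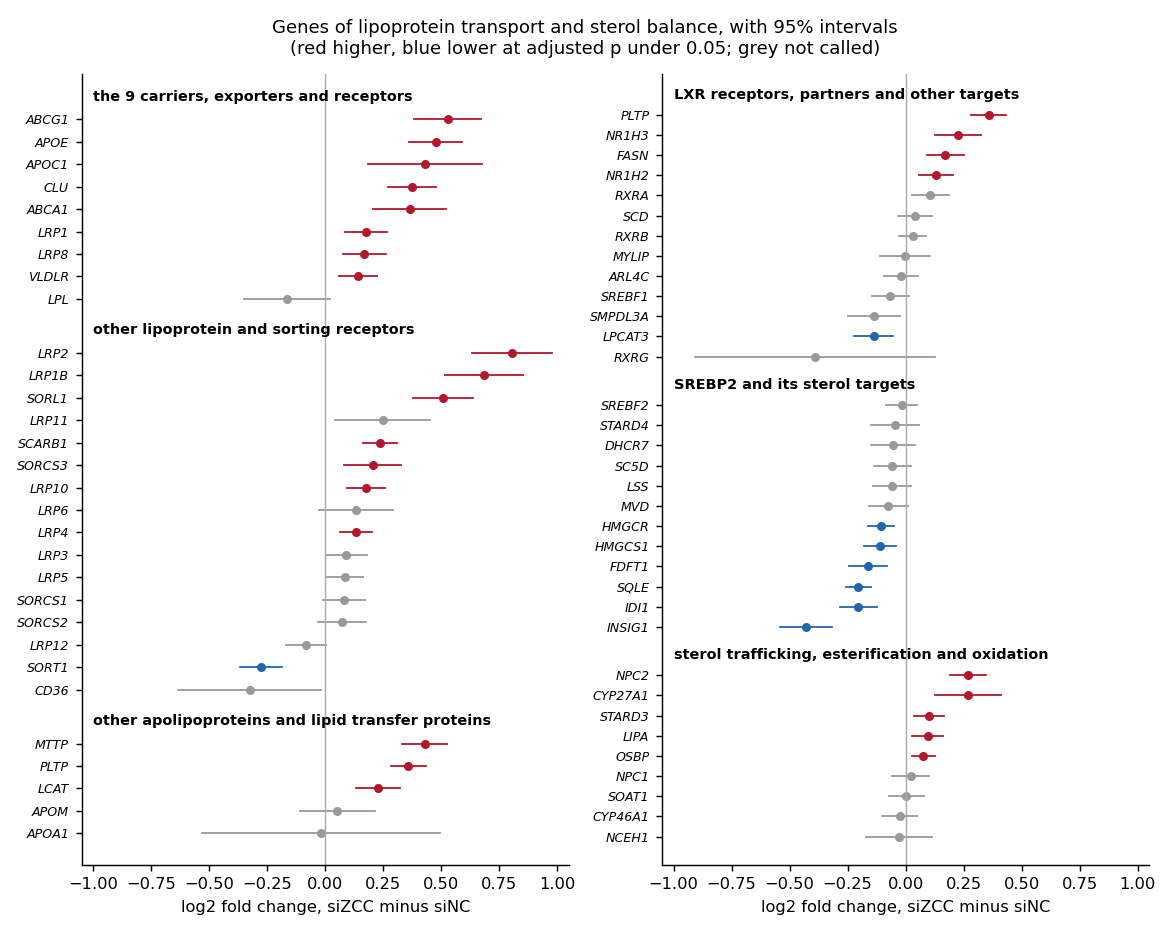
Log2 fold changes (siZCC minus siNC, horizontal axes) with 95% intervals for the 9 genes and for lists of related genes that passed the filter (some list genes are not drawn); red is higher and blue lower at an adjusted p under 0.05, grey not called. The SREBP2 targets shown lie below 0, while LRP2 is highest at 0.80.

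Of 10 helpers of the receptors kept, 2 were higher and 2 lower, with a median of -0.07. Over all genes tested, 11.4% were higher and 10.8% lower, which also stands beside the counts of the lists below. The partners that fold these receptors in the endoplasmic reticulum moved in opposite ways, LRPAP1 rising by 0.13 (SE 0.0248) and MESD falling by 0.17 (SE 0.0262). GULP1, an adaptor for LRP1, rose by 0.25 (SE 0.0538). RELN, which encodes reelin (-0.13, SE 0.0986), and its adaptor DAB1 (0.02, SE 0.0347) did not pass. Of the 5 genes kept that mature, anchor or inhibit LPL or resemble it, only LIPG, endothelial lipase, was called (0.13, SE 0.0395, higher), and the median was 0.09. Of the 6 genes kept that lie beside APOE and APOC1 on chromosome 19, none was higher and 2 were lower, BCAM (-0.21, SE 0.0514) and RELB (-0.19, SE 0.0560), with a median of -0.03. The nearest of them, TOMM40, was at 0.05 (SE 0.0354, adjusted p 0.322 in edgeR's quasi-likelihood test).

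The libraries held transcripts of several cell types, with neuron markers in all of them. The counts of markers called below stand against 11.4% higher and 10.8% lower over all genes tested. Of 10 astrocyte markers kept, 4 were higher and 1 lower, and their summed level was 1889 to 2117 CPM in siNC and 1951 to 2294 CPM in siZCC; GFAP was the most abundant (615.5 ± 81.98 CPM in siNC, SD, n = 6) and ALDH1L1 the least (2.21). GFAP was not called (0.09, adjusted p 0.625 in edgeR's quasi-likelihood test). The astrocyte markers called higher were ALDOC (0.98, adjusted p 1.39e-06), AGT (0.34, adjusted p 4.68e-04), SLC1A3 (0.30, adjusted p 7.46e-04) and ALDH1L1 (0.42, adjusted p 0.0198), the first 3 with every siZCC library above every siNC library, and AQP4 was lower (-0.21, adjusted p 0.0150; edgeR's quasi-likelihood test for all). Of 11 microglia markers, 4 passed the filter, none was called, and their sum was 1.43 to 2.87 CPM in siNC and 1.51 to 2.48 CPM in siZCC, from CSF1R (1.07) to TYROBP (0.243 in siNC); AIF1, CX3CR1, P2RY12, TMEM119 and the C1Q genes had at most 15 counts in any library. Of 11 neuron markers 1 was higher and 3 lower (sums 3006 to 3445 and 2774 to 3177 CPM), MAP2 being the most abundant (1027 in siNC) and RBFOX3 the least (1.27). Of 8 progenitor markers 4 were higher and 1 lower (sums 5739 to 6115 and 5800 to 6327 CPM), from VIM (3550 in siNC) to HES5 (6.09). Of 7 markers of dividing cells 6 were lower (sums 676 to 758 and 547 to 637 CPM), from TOP2A (207 in siNC) to BIRC5 (37.7). Of 9 mesenchymal and mural markers 1 was higher and 5 lower (sums 482 to 825 and 366 to 571 CPM), from ACTA2 (214 in siNC) to COL1A2 (0.706). Of 5 endothelial markers kept 2 were lower (sums 12.4 to 17.5 and 8.55 to 10.6 CPM), from TEK (9.46 in siNC) to VWF (0.0894). Of 3 choroid plexus markers kept 2 were lower (sums 10.3 to 10.8 and 8.68 to 9.79 CPM), from AQP1 (6.13 in siNC) to KCNJ13 (0.560), and of 6 oligodendrocyte lineage markers kept 1 was lower (sums 154 to 194 and 160 to 195 CPM), the least abundant being PDGFRA (0.393 in siNC). The part of these shifts in the results for the 9 genes was not tested.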

How the data were processed

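Whole-number counts of each gene symbol in each library were deposited by the authors. Per the submitters' processing notes bcl2fastq 2.17, STAR 2.7.6a and featureCounts 2.0.1 on GRCh38 were used. Annotation, strand setting and the role of each tool are not given in the sources used here. Per the labels' protocols, total RNA was made into libraries with a directional kit. Groups and replicate numbers came from the titles.

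These counts entered edgeR 4.0.16 (R 4.3.3) unchanged: filterByExpr defaults, TMM factors, and glmQLFit and glmQLFTest on all 12 libraries without covariates, with Benjamini-Hochberg adjustment over 24671 genes and a threshold of 0.05. SE is the log2 fold change divided by the square root of F. log2 CPM used a prior count of 2. Exact permutation tests ran over 924 assignments, and correlations used 100000 resamples within groups. The test was also run on counts simulated with the means and dispersions of these data, and its error rates there are not given here. Chi-square per degree of freedom was 5.15 to 24.95 between libraries of a group, more than counting error alone would give. This cannot tell whether libraries came from separate cultures or from the same RNA.

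Alternatives used limma 3.58.1, DESeq2 1.42.0 and sva 3.50.0. Thinning and the IL1B fits were added after seeing the data. GENCODE release 29 gave positions, lengths and GC content, found for 94.9% of genes kept. Figures and promoter searches used Python 3.11.15, pandas 2.3.3 and matplotlib 3.10.9. The members and lists were chosen with earlier results of these data known. Named genes are the 9, ZCCHC17, up to 3 called genes per list and direction by p, the most and least abundant marker of each cell type, and the 2 closest genes by within-group r. Other names (APOB, APOD, APOH, APOC2, ABCG4, MYLIP, SREBF1, SREBF2, SCD, RELN, DAB1, TOMM40, IL1B, astrocyte and microglia genes, genes over members' exons) were chosen after values were seen. Some genes that the rule or the lists name are not reported here.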

Additional observations from a re-analysis of the deposited data

Results flagged for a closer look

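One library stood apart by Dixon's ratio, the gap of an extreme library to its neighbour over the group's range. The total of siNC replicate 4 was 90755953 counts (90756000 to 5 digits), while the other 5 siNC totals lay between 109973707 and 120023356. It lay within the range of the siZCC totals, 76115083 to 105389055, which were all below those other 5. The gap was 0.657 of the range, and 0.625 is the limit for 6 libraries. It was the only one of 22 groups examined (library totals, ZCCHC17 and the 9 genes, in both treatments), and chance alone flags about 5% of groups. Without this library all 8 genes kept their calls.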

How the results depend on the processing

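Leaving out each library in turn kept 8 members called in every fit, while the count over all genes ran from 4484 to 5626. VLDLR came close to the threshold, with an adjusted p of up to 0.0491 in edgeR's quasi-likelihood test. The highest value was 0.0342 for APOC1 and 0.0273 for LRP8. Between those fits APOE ran from 0.44 to 0.50, ABCG1 from 0.48 to 0.56, VLDLR from 0.12 to 0.17 and LPL from -0.23 to -0.10. The APOE to APOC1 ratio, not called, ran from -0.015 (without siZCC replicate 1) to 0.10. Ranges were wider over the 14 other settings, which include the fits of each IL1B side. There APOE ran from 0.38 to 0.57 and ABCG1 from 0.42 to 0.63, and both were called in all 14. Upper quartile scaling, the size factors of DESeq2, its Wald test, other filters, limma voom, an offset for GC content and length and a block for IL1B changed no call of the 9 genes. Upper quartile scaling called 2511 genes higher and 2905 lower. With GC content and length corrected, APOE was 0.40 and LRP1 0.11.

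Against a minimum of 1.2-fold, stricter by construction, 349 genes and 2 members, APOE and ABCG1, passed. CLU (0.37, adjusted p 0.172), APOC1 (0.43, 0.512), ABCA1 (0.36, 0.568), LRP1 (0.18), LRP8 (0.17) and VLDLR (0.14) did not. With 1 surrogate variable APOC1 (0.40) and LRP1 (0.12) were lost and LPL was -0.0079; after thinning APOC1 (0.34) was lost. The cause was not tested.

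Fits of 6 libraries have fewer samples. Above 1 CPM of IL1B, 2043 genes and 4 members were called, without APOC1 (0.48), ABCA1 (0.35), LRP8 (0.19) and VLDLR (0.074). Below it, 1602 genes and 5 members were called, without APOC1 (0.38), LRP1 (0.10) and LRP8 (0.14).

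Replicate numbers were shared by the groups. Deviations of same-numbered libraries from their group means correlated at -0.077 to 0.018, and 0 of 12 libraries correlated best with its own number. Same-numbered libraries always lay on opposite sides of the IL1B separation, and the deviations were not centred by side. Whether the numbers pair the libraries can therefore not be told from these correlations. A fit with the replicate number as a block called 4902 genes and the same 8 members. The sterol trafficking list had 2 genes called with the block and 3 with upper quartile scaling, against 5. In paired differences of the APOE ratios (exact sign-flip test), LPL (0.65), LRP1 (0.30), LRP8 (0.31) and VLDLR (0.34) had an adjusted p of 0.0625. Each stood at 0.03125 before adjustment, the lowest that 6 pairs can give, so the adjusted value reflects the number of pairs and says nothing of stability. With the longest transcript as length, 3 members kept their rank. Depth limits APOC1 most, at 61 to 100 counts per library.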

Other observations

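Genes that move and store sterol inside the cell were listed apart from those above. Of 9 kept, 5 were higher and 0 lower in siZCC, with a median log2 fold change of 0.08 (edgeR's quasi-likelihood test; 11.4% of all genes were called higher). The largest rises were in NPC2, a lysosomal protein that hands cholesterol to NPC1 (0.27, SE 0.0366), and CYP27A1, which makes an oxysterol (0.27, SE 0.0674). NPC2 rose from 60.3 ± 1.62 to 72.6 ± 4.32 CPM (SD, n = 6 each), with no overlap of the groups. STARD3, a sterol transfer protein of late endosomes, rose by 0.10 (SE 0.0306). Upper quartile scaling left 3 of these genes called and the replicate block 2. NPC1 (0.02, SE 0.0380), SOAT1, which esterifies cholesterol (0.0026, SE 0.0354), and CYP46A1, which makes the oxysterol that leaves the brain (-0.03, SE 0.0358), did not pass.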
